A study of Mus musculus with 2 samples.

Results

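The Hox genes are the 37 genes whose only platform symbol is Hoxa, Hoxb, Hoxc or Hoxd followed by a number, out of 19938 genes measured. Each was read by 1 probe set. Hoxb8 was read only by a probe set that it shares with Hoxb7 and is not among them. The members were chosen by name and not by their values.

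RNA came from embryonic fibroblasts (MEFs), connective-tissue cells cultured from mouse embryos, here aged 13.5 days post coitum. In the MatDup.dist7 culture the distal segment of chromosome 7 is present as 2 maternal copies, and in the PatDup.dist7 culture as 2 paternal copies. Each genotype has 1 Affymetrix whole-transcript array, so there is no replicate and no test, and so small a number of arrays limits how precise any value is. The labels give neither the number of embryos behind a culture nor its passage, strain or sex, nor the body region the cells came from. None of the 4 Hox clusters lies on chromosome 7: in mouse, Hoxa is on chromosome 6, Hoxb on 11, Hoxc on 15 and Hoxd on 2.

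Hox genes encode homeodomain transcription factors that give cells their position along the head-to-tail axis and, for the high-numbered genes, along the limbs and genital bud. They stand in clusters that arose by duplication, and genes with the same number in different clusters, called paralogs, are the closest relatives. Low-numbered genes at one end of a cluster are switched on early and reach far forward in the embryo, and high-numbered genes at the other end are switched on later and further back. Fibroblasts are known to keep much of the Hox pattern of the body site they were taken from.

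Values are linear intensities in the units the submitters deposited. Each difference is the MatDup.dist7 value minus that of PatDup.dist7, taken on log2(intensity + 16), where 1 is a 2-fold difference, and the pseudocount of 16 understates the difference of dim genes. Intensities of different probe sets do not order the genes by transcript level, so levels are compared between arrays and not between genes. For genes read by several probe sets, the SD of the difference between probe sets of a gene was 0.43 (1931 probe sets of 724 genes with at least 1 array above the median signal), which tells how well probe sets agree on these arrays and says nothing of how cultures vary. The median difference over all genes was 0.02, and the log2 levels correlated between the arrays with r = 0.936 across all genes and 0.844 across the Hox genes, which are not independent replicates. On each array 9 of the 10 listed fibroblast markers lay above 66.4, the median of all probe sets on both arrays. Col1a1, the main collagen of connective tissue, had 7565 in MatDup.dist7 against 9870 in PatDup.dist7. Vim, the mesenchymal intermediate filament, had 11913 in MatDup.dist7 against 11542 in PatDup.dist7. Lum lay below that median, at 51.7 in MatDup.dist7 against 52.7 in PatDup.dist7, and Pdgfra was little above it, at 99.7 in MatDup.dist7 against 72.9 in PatDup.dist7.

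Hox genes stood mostly higher in MatDup.dist7, and the differences were concentrated at the low-numbered end of the Hoxa cluster. Of the 37 genes, 27 were higher in MatDup.dist7 and 10 in the PatDup.dist7 culture, while 51.4% of all genes were higher in MatDup.dist7. At least 2-fold differences were found for 5 Hox genes, all higher in MatDup.dist7, a rule that 4.47% of all genes met in this direction. In the other direction, PatDup.dist7 higher by at least 2-fold, there was no Hox gene and 3.16% of all genes. The median Hox difference was 0.51, and it was 0.30 for the 32 genes left when Hoxa2 to Hoxa6, chosen after their values were seen, were set aside. With the SD between probe sets as the limit, 20 Hox genes were higher in MatDup.dist7 against 3 in PatDup.dist7, where 23.7% and 20.1% of all genes passed. In bulk cultures, fewer cells of a type and less RNA per cell cannot be told apart.

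**Figure D1:**
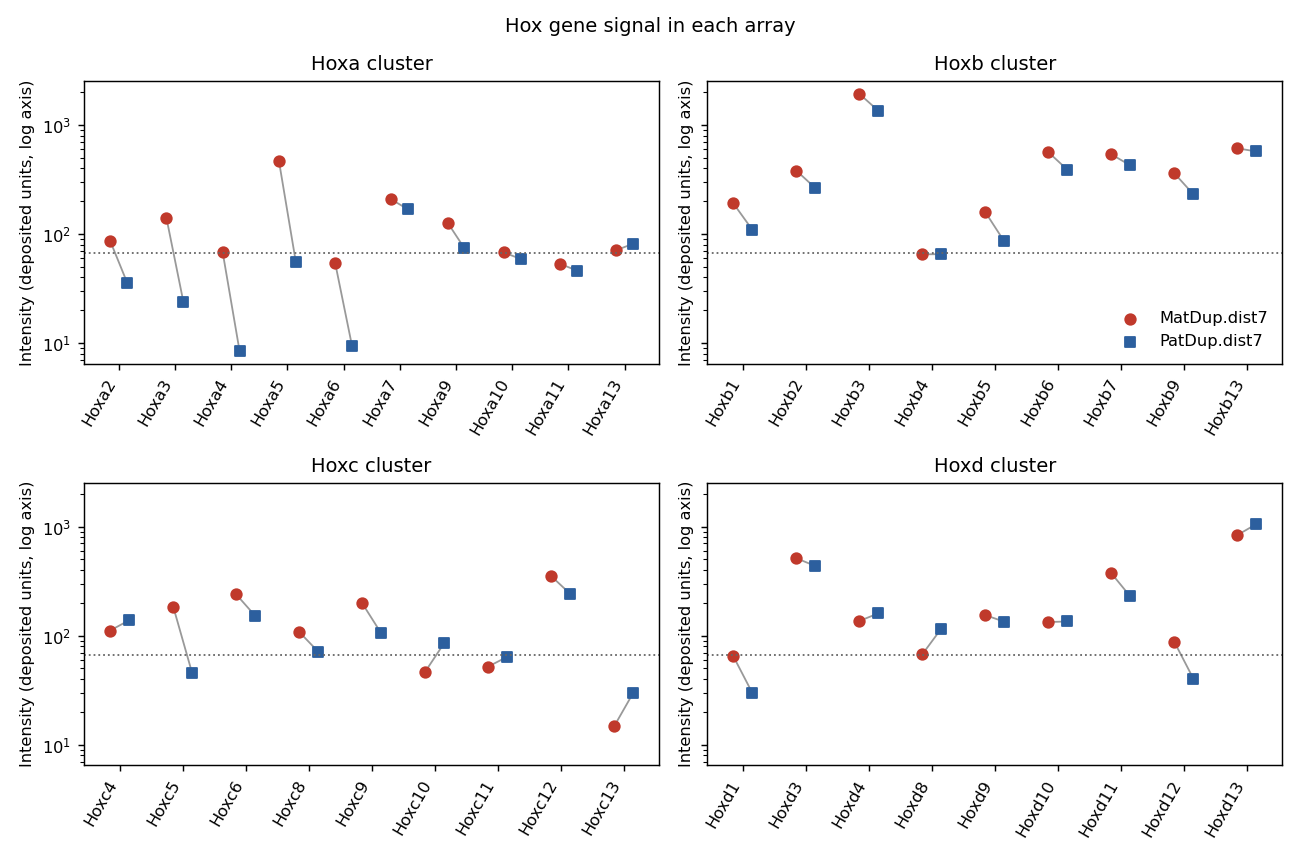
Intensity of each Hox gene (log axis, deposited units) in the MatDup.dist7 array (red circles) and the PatDup.dist7 array (blue squares), 1 array each, with a line joining the values of a gene and a dotted line at 66.4, the median of all probe sets. Hoxa2 to Hoxa6 and Hoxc5 have the longest lines, with Hoxa5 at 469 in MatDup.dist7 against 55.8 in PatDup.dist7.

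The median of all probe sets on both arrays, 66.4, is a mark of brightness and not a detection limit. In MatDup.dist7, 30 of the 37 Hox genes had an intensity above it, and in PatDup.dist7 24 did, where 11779 and 11389 of all 19938 genes did. On 31 genes at least 1 array passed this level, and the 6 that stayed below it on both were Hoxa6, Hoxa11, Hoxb4, Hoxc11, Hoxc13 and Hoxd1. None of the 37 had a value under 1 on either array. The lowest value in MatDup.dist7 was 14.8, for Hoxc13, and the lowest in PatDup.dist7 was 8.48, for Hoxa4.

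In the Hoxa cluster, the 5 lowest-numbered measured genes were far apart between the genotypes and the 5 highest-numbered ones were close. Hoxa5, which is needed for lung and for the vertebrae where neck meets trunk, had 469 in MatDup.dist7 against 55.8 in PatDup.dist7, a difference of 2.76 that ranked 10 among all 19938 genes. Hoxa3, needed for the thymus and parathyroid, had 140 in MatDup.dist7 against 24.0 in PatDup.dist7 (1.96). Hoxa4, a gene of the neck vertebrae, had 68.0 in MatDup.dist7 against 8.48 in PatDup.dist7 (1.78). These genes were brighter in MatDup.dist7 by 8.42-fold, 5.83-fold and 8.02-fold when the deposited intensities are divided without a pseudocount. The ratio of Hoxa4 rests on a PatDup.dist7 value below 22.0, the 25th percentile of all values. With low values raised to that level the Hoxa4 difference was 1.63, and with a pseudocount of 64 it was 0.87.

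Hoxa6, the next gene up the cluster, had 54.4 in MatDup.dist7 against 9.45 in PatDup.dist7 (1.47). Hoxa2, which patterns the neural crest of the jaw and ear region, had 86.1 in MatDup.dist7 against 35.9 in PatDup.dist7 (0.98). It fell just short of the 2-fold rule, and Hoxa6 was the member nearest above it. The block from Hoxa2 to Hoxa6 thus had 5 of 5 differences positive, with a median of 1.78, and in PatDup.dist7 each of the 5 lay below the median of all probe sets.

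The step came between Hoxa6 and Hoxa7, where the difference dropped by 1.19 on the log2 scale. Hoxa7, expressed in the trunk, had 207 in MatDup.dist7 against 168 in PatDup.dist7 (0.28), and Hoxa9, a gene of the posterior trunk and of blood progenitors, had 127 in MatDup.dist7 against 74.0 in PatDup.dist7 (0.67). Hoxa10, which patterns the lumbar region and the uterus, had 67.8 in MatDup.dist7 against 59.0 in PatDup.dist7 (0.16). Hoxa11, needed for the forearm and kidney, had 53.3 in MatDup.dist7 against 46.2 in PatDup.dist7 (0.16), and Hoxa13, needed for digits and the genital tract, had 71.1 in MatDup.dist7 against 81.3 in PatDup.dist7 (-0.16). From Hoxa7 to Hoxa13 the median was 0.16, and across the 10 Hoxa genes the difference declined with the paralog number, with a Spearman correlation of -0.83, a description over genes that share the same 2 arrays.

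The promoters on either side of this step are shown because the genes below it were all far higher in MatDup.dist7 and Hoxa7 was not. The sequences are the 250 bases before the RefSeq start on the minus strand of GRCm38.p6, taken from RefSeq, for the 3 Hoxa genes beyond 2-fold that have an entry and for Hoxa7. Capitals mark matches to the searched motifs.
Hoxa3 (chr6:52213068-52213317): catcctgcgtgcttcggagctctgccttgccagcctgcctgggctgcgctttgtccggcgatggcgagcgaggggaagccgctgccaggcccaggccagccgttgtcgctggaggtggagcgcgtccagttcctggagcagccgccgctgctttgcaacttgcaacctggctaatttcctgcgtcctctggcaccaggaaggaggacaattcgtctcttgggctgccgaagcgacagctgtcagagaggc
Hoxa5 (chr6:52204588-52204837): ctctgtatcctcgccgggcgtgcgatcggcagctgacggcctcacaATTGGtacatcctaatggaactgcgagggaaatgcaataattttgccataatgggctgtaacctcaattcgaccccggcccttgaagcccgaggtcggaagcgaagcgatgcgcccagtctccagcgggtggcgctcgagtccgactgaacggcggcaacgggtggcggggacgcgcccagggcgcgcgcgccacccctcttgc
Hoxa6 (chr6:52208673-52208922): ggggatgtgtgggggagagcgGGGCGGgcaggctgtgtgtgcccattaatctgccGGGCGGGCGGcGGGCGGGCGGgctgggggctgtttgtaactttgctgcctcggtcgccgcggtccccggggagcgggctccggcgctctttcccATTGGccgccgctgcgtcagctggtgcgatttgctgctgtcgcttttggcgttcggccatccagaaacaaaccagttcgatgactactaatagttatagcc
Hoxa7 (chr6:52218574-52218823): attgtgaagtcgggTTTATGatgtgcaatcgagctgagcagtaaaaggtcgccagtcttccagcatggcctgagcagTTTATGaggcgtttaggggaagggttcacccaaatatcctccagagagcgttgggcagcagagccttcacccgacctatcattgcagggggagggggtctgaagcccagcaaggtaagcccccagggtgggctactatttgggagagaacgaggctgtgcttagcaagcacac

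The promoters of Hoxa3, Hoxa5 and Hoxa6 held 18, 28 and 24 CpG pairs, and that of Hoxa7 held 7. Their GC content was 64.8%, 63.6% and 65.2%, and that of Hoxa7 was 54.8%. The promoter of Hoxa2, not shown, held 6 CpG pairs at 46.4% GC, both below Hoxa7, and its expression difference was 0.98. CpG content thus did not follow the step in every gene of the block. Over the 23 RefSeq promoters of the 21 Hox genes with an entry, the number of CpG pairs ran from 2 to 35 with a median of 13, and the median over all 32851 promoters was 6. The highest count, 35, was in the promoter of Hoxa13, whose expression difference was -0.16.

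Each motif was searched on both strands. The CCAAT box (CCAAT) was found in the windows of Hoxa5 and Hoxa6, in 13 of the 23 Hox promoters and in 33.8% of all promoters. The GC box (GGGCGG) occurred 5 times before Hoxa6, 2 of these matches overlapping the one before, and was present in 9 Hox promoters and 32.7% of all promoters. The core bound by Cdx proteins (TTTATG) occurred at 2 places before Hoxa7, in 4 Hox promoters and in 10.8% of all promoters. The TATA box (TATAAA), the joint Pbx and Hox site (TGATNNAT) and the E-box (CACGTG) were found in 3, 3 and 4 Hox promoters, against 12.4%, 7.68% and 6.02% of all promoters, and in none of the 4 windows shown. Retinoic acid response elements were searched only as exact direct repeats of AGGTCA, spaced by 5 or by 2 bases. They were found in none of the Hox windows and in 3 of all 32851 promoters each (0.00913%). So rare a match cannot tell whether the Hox windows lack such elements, and looser forms were not searched.

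In the RefSeq annotation the span of Hoxa3 starts between Hoxa6 and Hoxa7 and runs over Hoxa4, Hoxa5 and Hoxa6. The probe sets of these 4 genes can therefore read overlapping transcripts, and how far their signals are separate was not tested. Hoxb3 and Hoxb4, Hoxd3 and Hoxd4, and Hoxd10 and Hoxd11 overlap in the same way.

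In the Hoxb cluster, 8 of 9 genes were higher in MatDup.dist7 and none by 2-fold, with a median of 0.51 and a range from -0.0030 to 0.78. Hoxb1, which marks the hindbrain segment of the facial nerve, had 191 in MatDup.dist7 against 109 in PatDup.dist7 (0.72). Hoxb2, which acts after it in the same segment, had 381 in MatDup.dist7 against 264 in PatDup.dist7 (0.50), and Hoxb3 had 1928 in MatDup.dist7 against 1349 in PatDup.dist7 (0.51). Hoxb4, known for expanding blood stem cells, was level at 65.1 in MatDup.dist7 against 65.3 in PatDup.dist7, both under the median of all probe sets.

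Hoxb5, expressed in gut nerve precursors and lung, had the largest difference of the Hoxb cluster, at 158 in MatDup.dist7 against 85.4 in PatDup.dist7 (0.78). Hoxb6, expressed in lateral mesoderm, had 562 in MatDup.dist7 against 389 in PatDup.dist7 (0.51), and Hoxb7 had 538 in MatDup.dist7 against 426 in PatDup.dist7 (0.33). Hoxb9, a gene of the rib-bearing trunk, had 360 in MatDup.dist7 against 232 in PatDup.dist7 (0.60), while Hoxb13, a gene of the tail and prostate, had 610 in MatDup.dist7 against 572 in PatDup.dist7 (0.09). The probe set shared by Hoxb8 and Hoxb7 had 184 in MatDup.dist7 against 120 in PatDup.dist7 (0.56), within the range of its neighbours in the cluster.

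The Hoxc cluster went both ways, with 5 genes higher in MatDup.dist7, 4 in PatDup.dist7 and a median of 0.51. Hoxc5, a paralog of Hoxa5, was the only member outside Hoxa beyond 2-fold, at 184 in MatDup.dist7 against 45.4 in PatDup.dist7 (1.71). Its neighbour Hoxc4, on the low-numbered side, had 111 in MatDup.dist7 against 138 in PatDup.dist7 (-0.28), so the large difference was not shared by the end of this cluster.

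Hoxc6, whose forward limit lies near the start of the thorax, had 239 in MatDup.dist7 against 152 in PatDup.dist7 (0.60). Hoxc8, which specifies motor neurons of the forelimb level, had 108 in MatDup.dist7 against 71.3 in PatDup.dist7 (0.51), and Hoxc9, which specifies those of the thorax, had 198 in MatDup.dist7 against 105 in PatDup.dist7 (0.82). Of the higher-numbered genes, Hoxc12 was higher in MatDup.dist7, at 351 in MatDup.dist7 against 242 in PatDup.dist7 (0.51). The others were higher in PatDup.dist7. Hoxc10, a gene of the lumbar spinal cord and hindlimb, had 46.8 in MatDup.dist7 against 85.2 in PatDup.dist7 (-0.69), the most negative Hox difference. Hoxc11 had 52.0 in MatDup.dist7 against 63.9 in PatDup.dist7 (-0.23), and Hoxc13, needed for hair and nails, had 14.8 in MatDup.dist7 against 29.8 in PatDup.dist7 (-0.57).

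The Hoxd cluster had the smallest median, 0.18, with 5 genes higher in MatDup.dist7, 4 in PatDup.dist7 and none by 2-fold. Hoxd1, active in pain-sensing neurons, had 64.5 in MatDup.dist7 against 29.8 in PatDup.dist7 (0.81), and Hoxd3, which shapes the uppermost neck vertebrae, had 512 in MatDup.dist7 against 435 in PatDup.dist7 (0.23). Hoxd4, another neck gene, had 136 in MatDup.dist7 against 160 in PatDup.dist7 (-0.21), and Hoxd8 had 67.6 in MatDup.dist7 against 116 in PatDup.dist7 (-0.66). Hoxd4 and Hoxd8 were the only central-numbered members of this cluster, and both were higher in PatDup.dist7.

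Hoxd9 had 154 in MatDup.dist7 against 134 in PatDup.dist7 (0.18), and Hoxd10, a gene of limb and lumbar motor neurons, had 133 in MatDup.dist7 against 135 in PatDup.dist7 (-0.02). Hoxd11, which acts with Hoxa11 in the forearm, had 372 in MatDup.dist7 against 229 in PatDup.dist7 (0.67). Hoxd12, expressed in the distal limb, had 87.4 in MatDup.dist7 against 40.4 in PatDup.dist7 (0.87). Hoxd13, the main digit gene of the cluster, had 837 in MatDup.dist7 against 1053 in PatDup.dist7 (-0.33). Adjacent members of the limb-patterning end thus stood on different sides of 0.

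**Figure D2:**
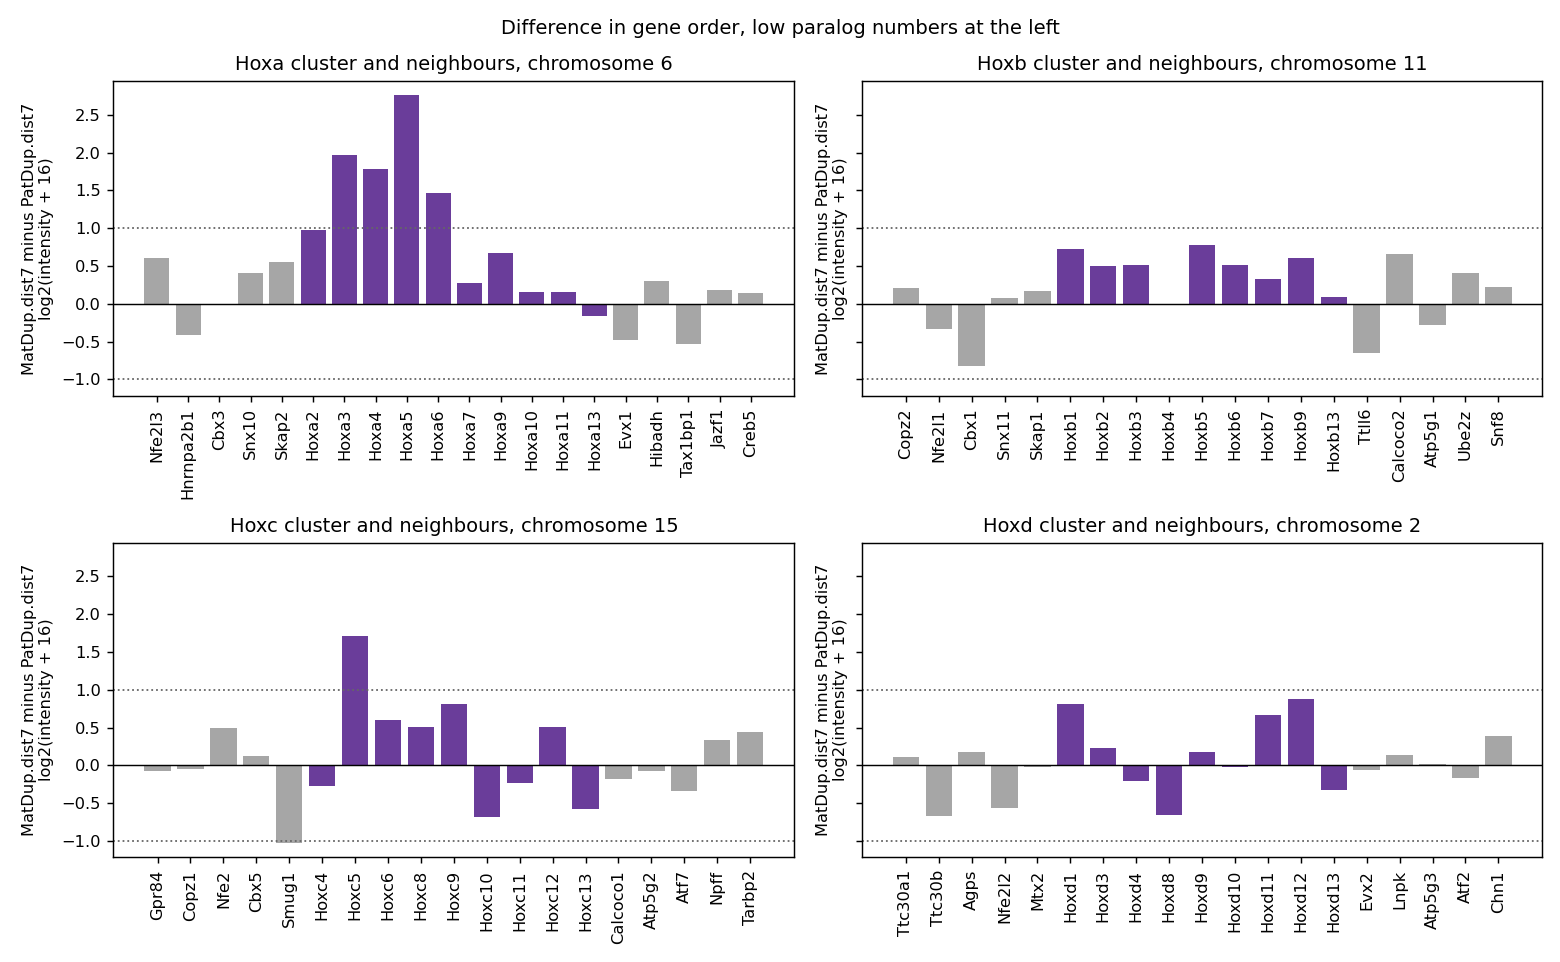
Difference between MatDup.dist7 and PatDup.dist7 on log2(intensity + 16) for each Hox gene (purple) and the 5 nearest measured protein-coding genes on each side of its cluster (grey), in chromosome order from low to high paralog number, with dotted lines at 2-fold. The tall bars from Hoxa2 (0.98) through Hoxa5 (2.76) to Hoxa6 (1.47) end at Hoxa7 (0.28), and Hoxc5 (1.71) stands alone in its cluster.

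By paralog number, the genes of group 5 had the largest median, 1.71, and all 3 were higher in MatDup.dist7, by 2.76 for Hoxa5, 1.71 for Hoxc5 and 0.78 for Hoxb5. In group 4 the paralogs stood apart, with Hoxa4 at 1.78 and Hoxb4, Hoxc4 and Hoxd4 between -0.28 and -0.0030. In group 3, Hoxa3 stood at 1.96 and Hoxb3 and Hoxd3 at 0.51 and 0.23, and in group 6, Hoxa6 stood at 1.47 and Hoxc6 and Hoxb6 at 0.60 and 0.51. For each of the numbers 2 to 6 the Hoxa member had the largest difference of its group.

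The genes numbered 1 to 3, the anterior ones, were all higher in MatDup.dist7, 7 of 7, with a median of 0.72. Of the central genes, numbered 4 to 8, 10 of 14 were higher in MatDup.dist7, with a median of 0.51, and they included 4 of the 5 genes beyond 2-fold. Of the posterior genes, numbered 9 to 13, 10 of 16 were higher in MatDup.dist7, none by 2-fold, with a median of 0.16. Among the posterior numbers, group 9 had 4 of 4 positive and a median of 0.64, group 12 had 2 of 2 positive and a median of 0.69, and group 13 had 1 of 4 positive and a median of -0.24. Across all 37 genes the difference and the paralog number had a Spearman correlation of -0.44 and a Pearson correlation of -0.43, given as descriptions since the genes share the same arrays. Outside Hoxa the Spearman correlation was weaker, at -0.23 in Hoxb, -0.38 in Hoxc and -0.07 in Hoxd, over 9 genes each.

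The genes next to the clusters did not share the large differences. Of the 40 flanking genes, 21 (52.5%) were higher in MatDup.dist7, none by 2-fold, with a median of 0.05, and 1 was higher in PatDup.dist7 by at least 2-fold. Among all genes, 51.4% had a positive difference, 4.47% passed 2-fold toward MatDup.dist7 and 3.16% passed it toward PatDup.dist7. The flanking genes thus stood near these shares, and so short a list cannot tell whether they differ from other genes. Beside Hoxa2, the adaptor gene Skap2 had 191 in MatDup.dist7 against 125 in PatDup.dist7 (0.56), and the median over the 10 Hoxa neighbours was 0.16. The largest differences at each cluster were 0.60 for Nfe2l3 beside Hoxa, -0.82 for the heterochromatin protein gene Cbx1 beside Hoxb, -1.03 for the DNA repair gene Smug1 beside Hoxc and -0.67 for Ttc30b beside Hoxd. With a pseudocount of 64, or with a signal filter that kept only genes above 66.4 on an array, no flanking gene passed 2-fold in either direction.

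Transcripts from within or at the edge of the clusters, 12 measured of 21 listed, had a median of 0.38, with 8 higher in MatDup.dist7 against 4 in PatDup.dist7. Among all genes, 51.4% were higher in MatDup.dist7, 4.47% passed 2-fold in that direction and 3.16% passed it toward PatDup.dist7. With 12 transcripts the counts cannot tell whether the list differs from these shares. The noncoding RNA Hottip, at the Hoxa13 end, had 100 in MatDup.dist7 against 60.7 in PatDup.dist7 (0.60), and Haglr, in the Hoxd cluster, had 31.1 in MatDup.dist7 against 16.7 in PatDup.dist7 (0.53). Evx1, the homeobox gene beyond Hoxa13, had 124 in MatDup.dist7 against 179 in PatDup.dist7 (-0.48). Mir196b, a microRNA gene between Hoxa9 and Hoxa10, was the only one of the 12 beyond 2-fold and went against the Hoxa genes, at 12.5 in MatDup.dist7 against 52.6 in PatDup.dist7 (-1.27). The 2-fold call of Mir196b was lost with a pseudocount of 64 and with the signal filter, which left it out. Mir196a-1 in Hoxb had 76.0 in MatDup.dist7 against 50.6 in PatDup.dist7 (0.47), and Mir196a-2 in Hoxc had 13.7 in MatDup.dist7 against 5.22 in PatDup.dist7 (0.49).

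The microRNAs of the clusters are shown because they fall into families that cross the clusters as the Hox paralogs do. RefSeq mature sequences of the 5-prime arm are given with the seed, bases 2 to 8, in capitals. The probe sets lie under the precursor gene names and do not measure the mature RNA.
miR-196b-5p (Mir196b, chr6:52230129-52230150, minus strand): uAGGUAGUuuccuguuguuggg
miR-196a-5p (Mir196a-1, chr11:96265187-96265208, plus strand): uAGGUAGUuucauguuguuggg
miR-10a-5p (Mir10a, chr11:96317186-96317208, plus strand): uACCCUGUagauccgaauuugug
miR-10b-5p (Mir10b, chr2:74726074-74726096, plus strand): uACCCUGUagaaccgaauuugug
The miR-196 genes share the seed AGGUAGU, and miR-196a and miR-196b are known to repress Hox transcripts, Hoxb8 above all. The miR-10 genes share ACCCUGU, and their values were 19.7 in MatDup.dist7 against 11.5 in PatDup.dist7 for Mir10a (0.38) and 12.8 in MatDup.dist7 against 6.67 in PatDup.dist7 for Mir10b (0.35).

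The proteins that work with or on Hox genes did not share a direction. Of the 8 measured TALE cofactors, homeodomain partners that bind DNA with Hox proteins, 3 were higher in MatDup.dist7, and the median was -0.03. The shares of all genes were 51.4% higher in MatDup.dist7 and 4.47% at least 2-fold higher there. Pknox2 had 62.7 in MatDup.dist7 against 18.2 in PatDup.dist7 (1.20), the only cofactor beyond 2-fold, a call lost with a pseudocount of 64 and with the signal filter. Pbx3 had 119 in MatDup.dist7 against 224 in PatDup.dist7 (-0.83), Meis3 167 in MatDup.dist7 against 220 in PatDup.dist7 (-0.37), and Pbx4 24.7 in MatDup.dist7 against 36.3 in PatDup.dist7 (-0.36). Meis2 differed by 0.15. The cofactors thus stood on both sides of 0.

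Polycomb proteins keep Hox genes silent, and none of the 30 measured differed by 2-fold, with 15 on each side of 0 and a median of -0.02. Scmh1 had 180 in MatDup.dist7 against 100 in PatDup.dist7 (0.76) and Pcgf2, also called Mel18, had 149 in MatDup.dist7 against 88.4 in PatDup.dist7 (0.66), while Jarid2 had 61.8 in MatDup.dist7 against 102 in PatDup.dist7 (-0.60) and Mtf2 had 77.6 in MatDup.dist7 against 119 in PatDup.dist7 (-0.53). Of the 13 measured trithorax group proteins and histone demethylases, which oppose Polycomb, 9 were higher in MatDup.dist7, none was 2-fold apart, and the median was 0.04. This list is shorter still, and its counts cannot tell it from all genes either. Wdr5, Psip1 and Kdm6b had differences of 0.48, 0.36 and 0.26. The demethylase gene Kdm6a, which lies on the X chromosome and is known to escape its inactivation, had 71.5 in MatDup.dist7 against 143 in PatDup.dist7 (-0.86).

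The 24 measured upstream regulators of Hox genes were the genes of retinoic acid, Cdx, Fgf and Gdf11 signalling. Each genotype had 1 of them higher by at least 2-fold, and the median was 0.19, with a mean of 0.01. The same rule caught 4.47% of all genes on the MatDup.dist7 side and 3.16% on the PatDup.dist7 side. With 1 call on each side, the counts cannot tell this list from all genes. Aldh1a2, the enzyme that makes retinoic acid in the early trunk, had 124 in MatDup.dist7 against 363 in PatDup.dist7 (-1.44). Cdx1, a homeobox activator of Hox genes, had 78.0 in MatDup.dist7 against 28.7 in PatDup.dist7 (1.07), and its relative Cdx4 had 25.0 in MatDup.dist7 against 5.66 in PatDup.dist7 (0.92). Aldh1a3, another retinoic acid enzyme, had 102 in MatDup.dist7 against 50.1 in PatDup.dist7 (0.84). Gdf11, which sets the onset of posterior Hox genes, had 162 in MatDup.dist7 against 281 in PatDup.dist7 (-0.74), and Kat6a, a histone acetyltransferase needed for Hox expression, had 74.5 in MatDup.dist7 against 132 in PatDup.dist7 (-0.71). Members of the retinoid group thus stood in either direction, and the call of Cdx1 was lost with a pseudocount of 64.

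**Figure D3:**
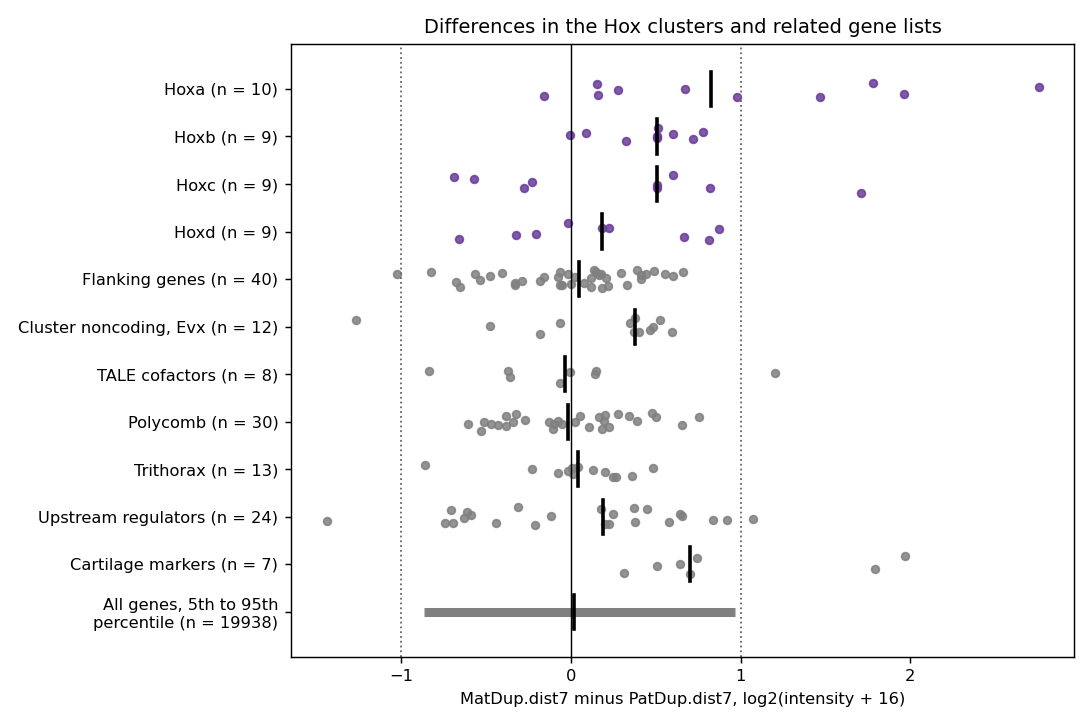
Difference between MatDup.dist7 and PatDup.dist7 on log2(intensity + 16) for each gene (points) of the Hox clusters and of related lists, with the list median as a black bar, dotted lines at 2-fold and, at the bottom, the 5th to 95th percentile of all 19938 genes. The Hoxa median of 0.82 and the cartilage median of 0.70 stand to the right of the medians of the cofactors (-0.03) and Polycomb genes (-0.02).

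Markers of another tissue stood higher with the Hox genes. All 7 measured cartilage markers were higher in MatDup.dist7, with a median of 0.70, and 2 passed 2-fold. These shares were 51.4% and 4.47% over all genes. The cartilage intensities summed to 1108 in MatDup.dist7 against 421 in PatDup.dist7, sums in which the brightest probe set, that of Col2a1, weighs most. Col2a1, the main cartilage collagen, had 599 in MatDup.dist7 against 141 in PatDup.dist7 (1.97), and Comp, another cartilage matrix protein, had 54.9 in MatDup.dist7 against 4.44 in PatDup.dist7 (1.79), a call lost with a pseudocount of 64 and with the signal filter. Of 6 epithelial markers 5 were higher in MatDup.dist7, with intensities that summed to 762 in MatDup.dist7 against 443 in PatDup.dist7, of which Krt19 had 152 in MatDup.dist7 against 18.8 in PatDup.dist7 (2.27). The fibroblast markers had a median of -0.19, with 3 of 10 higher in MatDup.dist7. Sox9, the transcription factor of cartilage, differed by 0.70, and Matn1, Acan and Col11a2 by 0.75, 0.64 and 0.51. The medians of the macrophage, skeletal muscle, neural and endothelial markers were -0.26, -0.24, 0.11 and -0.03. The part of these markers in the Hox differences was not tested.

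Of 28 measured regional transcription factors of limb, sclerotome and face, 15 (53.6%) were higher in MatDup.dist7, with a median of 0.18. The share of all genes higher there was 51.4%, close to that of the list. At least 2-fold differences were met by 4.47% of all genes toward MatDup.dist7 and by 3.16% toward PatDup.dist7. Pax1 (46.7 in MatDup.dist7 against 0.0074 in PatDup.dist7) and Nkx3-2 (51.6 in MatDup.dist7 against 12.1 in PatDup.dist7), both genes of the vertebra-forming sclerotome, were higher in MatDup.dist7 by at least 2-fold, while Emx2, Msx1, Pax3 and Shox2 were higher in PatDup.dist7 by at least 2-fold, with differences from -1.72 to -1.13. With a pseudocount of 64 none of these 6 calls was left, with the signal filter 2 of those higher in PatDup.dist7 were left and none of those higher in MatDup.dist7, and the call of Pax1 was lost when values under 1 were left out. Prrx1, Twist1, Msx2 and Foxd1 had differences of -0.82, -0.76, -0.69 and 0.62.

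Transcripts of the sex chromosomes differed as well. Uty, a Y-linked gene, had 77.9 in MatDup.dist7 against 2.61 in PatDup.dist7, and Xist, the RNA that silences an X chromosome, had 0.0017 in MatDup.dist7 against 91.2 in PatDup.dist7. Genotype, sex-linked transcripts and culture cannot be told apart with 1 array each.

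The 2-fold calls of dim genes depended on how low signal was treated. Hoxa3, Hoxa5 and Hoxc5 passed 2-fold under each of the 7 alternatives, with differences from 1.21 to 2.54, from 2.15 to 3.07 and from 1.18 to 2.02. Hoxa4 and Hoxa6 dropped under 2-fold with a pseudocount of 64, at 0.87 and 0.69. Hoxa2, Hoxd1 and Hoxd12 also passed it with a pseudocount of 1, and when low values were raised to the 25th percentile of all values. All 8 of these genes were higher in MatDup.dist7 under every alternative that kept them.

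**Figure D4:**
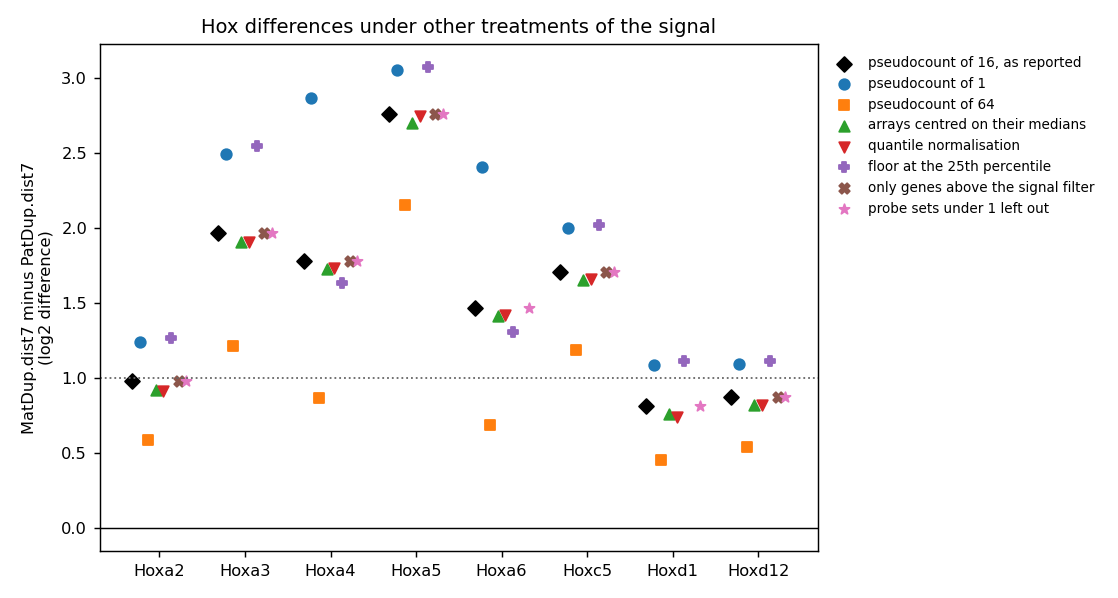
Log2 difference between MatDup.dist7 and PatDup.dist7 for the 8 Hox genes that passed 2-fold (dotted line) under any treatment of the signal, with a symbol for each treatment. Hoxa5 lies between 2.15 and 3.07 throughout, and the spread is widest for Hoxa4, from 0.87 to 2.86, and Hoxa6, from 0.69 to 2.41.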

How the data were processed

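The authors deposited 1 linear intensity per probe set and array, and Affymetrix Expression Console is named in the submitters' processing notes. How it corrected background, summarised and normalised, and the genome build of the array design, were not given in the sources used here. Of 35557 probe sets, 21789 had 1 gene symbol, 1621 several and 12147 none. Those with 1 symbol were used, 21698 of them were updated through the RefSeq table of GRCm38.p6, and the values of a gene's probe sets were averaged as log2(intensity + 16). The median intensity was 68.6 in MatDup.dist7 and 64.2 in PatDup.dist7. Calculations used Python 3.11.15, pandas 2.3.3 and numpy 2.4.6 and were tested on simulated arrays. With 1 array per genotype, counts and medians are given beside all genes and no p-value is given. Alternatives were pseudocounts of 1 and 64, centring, quantile normalisation, a floor, a signal filter, leaving out values under 1, and 1.5-fold and 3-fold rules.

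The members were set by gene name and not by their values. The choice to describe them, and that of the lists, was made with earlier results of these data known. Every Hox gene was named, and in each other list the members at least 2-fold apart and up to 4 more with the largest difference, with the largest at each cluster among flanking genes. Other named genes were chosen after their values were seen.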

Additional observations from a re-analysis of the deposited data

How the results depend on the processing

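No paired analysis was possible because each genotype has 1 array. The median Hox difference stayed between 0.44 and 0.53 and the count of positive differences at 27 of 37 (24 of 31 with the signal filter, where 49.3% of the genes were positive) under the 7 alternatives. The count at least 2-fold higher in MatDup.dist7 was 8 with a pseudocount of 1, 8 with the floor, 3 with a pseudocount of 64 and 15 with the 1.5-fold rule, against 10.9%, 5.13%, 0.466% and 15.5% of all genes. With the 1.5-fold rule 2 Hox genes were higher in PatDup.dist7, against 12.5% of all genes. A pseudocount of 64 gave medians of 0.53 for Hoxa, 0.095 for the posterior numbers, 0.50 for number 1, 0.16 for the cluster noncoding and Evx list and 0.43 for the cartilage markers. Centring gave 0.10 for the posterior numbers, and the floor gave 0 for the noncoding and Evx list. With the signal filter, which leaves fewer genes, the median was 0.083 for Hoxd, 0.67 for number 11, -0.21 for number 4, 0.047 for the regional factors and -0.16 for the upstream regulators. Alternatives for single numbers and other lists were chosen after seeing the data. The cause of the other moves was not tested. Without replicate arrays the variation between cultures is unknown.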
